A study of Mus musculus with 6 samples.

Results

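The enzymes of glycolysis, gluconeogenesis and glycogen metabolism were compared between livers of fasted mice with and without CREBH, a transcription factor of the endoplasmic reticulum membrane encoded by Creb3l3. The set holds 32 genes chosen by name from the 55536 genes listed in each count file, and all 32 were among the 15589 genes that passed the filter on low counts. They comprise 2 genes of sugar phosphorylation, 11 of glycolysis, 3 that set the level of fructose-2,6-bisphosphate, 6 of gluconeogenesis and 10 of glycogen synthesis and breakdown. Per the labels, both groups were fasted for 14 h overnight, and the groups were WT mice (3 libraries) and mice labelled CREBH-K.O (3 libraries, written CREBH-KO here). The sources used here do not give the strain, age or sex of the mice, or the exons removed in the knockout. The series has no fed mice, so each value below describes the fasted state only.

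The liver stores glucose as glycogen after a meal and releases it between meals, first from glycogen and then by making new glucose from lactate, amino acids and glycerol. Glycolysis and gluconeogenesis share most of their enzymes, and the direction of flow is set at a few steps where separate enzymes run each way. Those steps are served by Pfkl against Fbp1, by Pklr against Pck1 with pyruvate carboxylase, and by glucose phosphorylation against the glucose-6-phosphatase G6pc. Glycogen is built by Ugp2, Gyg, Gys2 and Gbe1 and degraded by Pygl.

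The libraries held 28106243 to 39288819 reads counted in genes. Creb3l3 fell from 485.8 ± 16.6 to 49.6 ± 6.79 CPM (counts scaled to a common library size with TMM factors; mean ± SD, n = 3 per group). For 2 libraries, CREBH-KO 2 and CREBH-KO 3, the submitters noted the loss of the read 1 file, so values for CREBH-KO 1 alone are given where they bear on a call. Hepatocyte markers (8 genes, such as Alb and Apob) summed to 65736 to 79397 CPM in WT and 76433 to 82322 CPM in CREBH-KO. In bulk liver RNA, fewer cells of a type and less RNA per cell cannot be told apart.

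Of the 32 genes, 6 fell in CREBH-KO and 1 rose (edgeR quasi-likelihood test, p adjusted by Benjamini-Hochberg over all genes tested, threshold 0.05). Ldha, Pfkfb1, Pck1, Ugp2, Gys2 and Gbe1 fell, and G6pc rose. The called share was 21.9% of the set against 10.4% of all genes tested; 6.46% of all genes fell and 3.91% rose. WT and CREBH-KO libraries were fully separated for 13 members (40.6%), against 30.6% of all genes tested. Of all calls, 37.7% were higher in CREBH-KO, and 52.8% with scaling by library size alone, which shifted the median of all genes from 0.02 to 0.10. Median log2 fold changes (CREBH-KO minus WT throughout) were -0.09 for the set and 0.02 for all genes tested. Among called members Pfkfb1 (2.19-fold) and Gys2 (2.00-fold) fell the most.

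**Figure D1:**
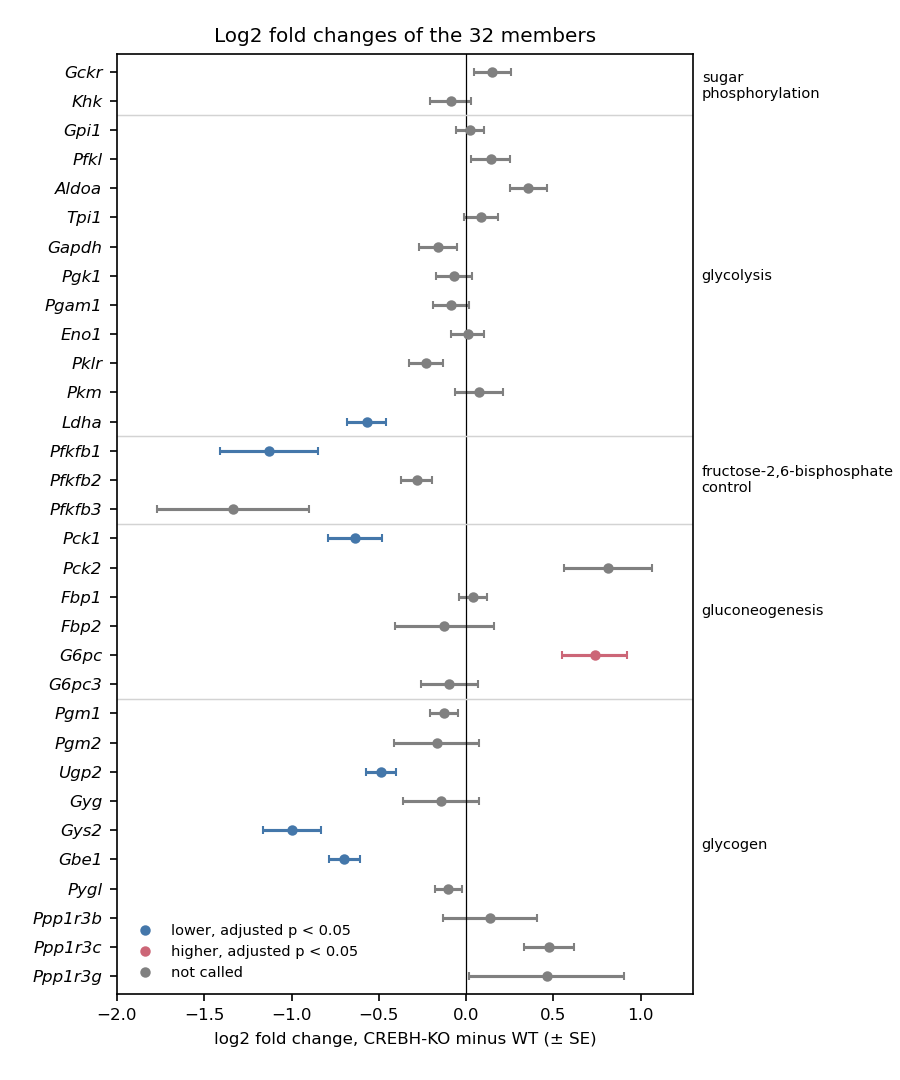
Log2 fold change, CREBH-KO minus WT, with its standard error for each of the 32 genes, grouped by role (3 libraries per group; blue, lower; red, higher; grey, not called). Ugp2, Gys2 and Gbe1 lie below 0 in the glycogen group while Pygl is at -0.10, and most glycolytic genes lie near 0.

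Promoter sequence is shown for the members among the called genes that carry a listed motif and for Gbe1, the fall with the smallest adjusted p, which carries none. The sequences are from RefSeq (GRCm38.p6), which held 44 promoter windows for 30 of the 32 genes (not Gys2 and Ppp1r3b); each run below is the 250 bases upstream of a RefSeq start, 5′ to 3′ on the gene's strand. Capitals mark exact matches on either strand to TGACGTCA (the full cAMP response element), its core TGACG (which also lies within the full element), CACGTG (E-box), GTAAACA (forkhead) or TTACGTAA (D-box).

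Ldha, chr7:46845554-46845803, plus strand: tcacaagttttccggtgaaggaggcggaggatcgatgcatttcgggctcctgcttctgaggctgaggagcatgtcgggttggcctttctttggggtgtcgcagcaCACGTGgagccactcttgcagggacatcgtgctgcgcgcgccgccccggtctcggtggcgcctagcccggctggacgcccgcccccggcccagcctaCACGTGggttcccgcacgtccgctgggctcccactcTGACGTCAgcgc
Pck1, chr2:173152823-173153072, plus strand: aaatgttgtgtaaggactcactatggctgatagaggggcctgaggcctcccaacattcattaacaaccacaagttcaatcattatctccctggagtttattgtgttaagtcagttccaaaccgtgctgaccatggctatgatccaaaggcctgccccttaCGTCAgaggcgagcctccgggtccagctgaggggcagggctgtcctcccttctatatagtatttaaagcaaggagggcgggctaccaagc
G6pc, chr11:101367466-101367715, plus strand: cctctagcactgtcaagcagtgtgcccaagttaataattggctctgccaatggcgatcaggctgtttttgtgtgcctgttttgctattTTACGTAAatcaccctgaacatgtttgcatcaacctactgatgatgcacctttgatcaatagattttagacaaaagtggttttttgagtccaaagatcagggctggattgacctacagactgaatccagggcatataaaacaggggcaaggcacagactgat
Gbe1, chr16:70313699-70313948, plus strand: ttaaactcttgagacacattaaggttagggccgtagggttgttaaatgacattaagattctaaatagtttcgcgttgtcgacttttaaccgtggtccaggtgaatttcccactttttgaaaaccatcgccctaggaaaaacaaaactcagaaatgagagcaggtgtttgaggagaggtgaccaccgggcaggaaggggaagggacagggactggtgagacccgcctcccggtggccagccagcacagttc

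The full element TGACGTCA stood 12 bases upstream of the Ldha start and was in no other member's window, where 1.56% of 32536 distinct upstream windows hold it. The core TGACG, held by 17.9% of all windows, was found in 10 of the 44 member windows, from 8 members. Among them was Pck1, where it is read as CGTCA on the printed strand and begins 90 bases upstream of the start. The D-box letters, in 0.114% of all windows, were found only in G6pc among the members, 162 bases upstream. CACGTG, in 6.04% of all windows, occurred in 7 of the 44 member windows, from 7 members. A pair of matches was found for Ldha and likewise for G6pc3, which was not called. GTAAACA, in 3.17% of all windows, occurred in none. No listed motif is in the Gbe1 window. GENCODE places a start of G6pc and of Pck1 within these windows, and RefSeq has a further Ldha start. A match is a string of letters and no record of binding.

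Glycogen synthesis genes held the calls with the smallest adjusted p. Ugp2, which makes UDP-glucose, the building block of glycogen, was at 285, 269.8 and 278 CPM in WT 1, 2 and 3 and at 189, 187 and 218 CPM in CREBH-KO 1, 2 and 3. Each CREBH-KO library was lower than every WT library, a fall of 0.49 ± 0.09 on the log2 scale (SE, edgeR adjusted p = 0.00820). Gys2, the liver isoform of glycogen synthase, was at 179.7, 266 and 294 CPM in WT and at 109, 132 and 129.8 CPM in CREBH-KO. WT 1 was the lowest WT library and still above all of CREBH-KO, and Gys2 fell by 1.00 ± 0.17 on the log2 scale (SE, edgeR adjusted p = 0.00703). Gbe1, the branching enzyme that adds side chains to the growing polymer, was at 77.8, 80.4 and 68.5 CPM in WT and at 47.7, 48.2 and 43.9 CPM in CREBH-KO. The Gbe1 groups were far apart relative to their spread, and the gene fell by 0.70 ± 0.09 on the log2 scale (SE, edgeR adjusted p = 0.00193). These calls were lost only with CREBH-KO 1 alone against WT (adjusted p of 0.0800 to 0.0905), where the falls were as large: 0.58 for Ugp2, 1.20 for Gys2 and 0.69 for Gbe1.

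The remaining glycogen genes did not pass the test. Pygl, which releases glucose units from glycogen, averaged 256.8 ± 17.7 CPM in WT and 239 ± 5.50 CPM in CREBH-KO (log2 fold change -0.10 ± 0.08 SE, edgeR adjusted p = 0.470). Its groups did not overlap, but by a small margin, with 246 CPM in the lowest WT library and 244 CPM in the highest CREBH-KO library. The ratio of Gys2 to Pygl within each library, on the log2 scale and per length, was 0.92, 1.32 and 1.63 in WT and 0.28, 0.49 and 0.48 in CREBH-KO. The level of this ratio depends on the length used: the WT mean was 1.29 with the union of exons and 0.16 with the longest transcript. The groups did not overlap, and the difference was -0.87 (two-sided exact permutation p = 0.10, the smallest that 3 against 3 libraries can give; 0.35 adjusted over 7 ratios). Gyg, the protein that primes glycogen, was low at 4.78 ± 0.482 CPM in WT and 4.32 ± 1.15 CPM in CREBH-KO (-0.14 ± 0.22). Pgm1, the main phosphoglucomutase, which links glucose 6-phosphate to glycogen, had a log2 fold change of -0.13 ± 0.08, and the less abundant Pgm2 one of -0.17 ± 0.24. The phosphoglucomutase levels per length in WT were 97.4 ± 6.01 for Pgm1 and 1.42 ± 0.383 for Pgm2, as CPM per kilobase of exon (RPKM).

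Members encoding subunits that bring protein phosphatase 1 to glycogen, where it activates glycogen synthase, had positive log2 fold changes, and none passed the test. Outside the members, the subunit gene Ppp1r3e went the other way, at 3.34 to 5.69 CPM in WT and 1.84 to 3.27 CPM in CREBH-KO. Its groups did not overlap, but it did not pass (log2 fold change -0.99 ± 0.29 SE, edgeR adjusted p = 0.0624). Ppp1r3f, at most 0.468 CPM in any library, had a log2 fold change of 0.28 ± 0.55. Ppp1r3c was at 47.4, 31.7 and 34.6 CPM in WT and at 54.5, 48.4 and 55.2 CPM in CREBH-KO. The groups did not overlap, but the gene did not pass (log2 fold change 0.47 ± 0.14 SE, edgeR adjusted p = 0.0691). It passed in DESeq2 (adjusted p = 0.0217), with no filter (0.00356), with library size alone (0.0427) and without WT 1 (0.00416). Ppp1r3b, the most abundant of the subunits in liver here, ranged from 97.6 to 150.2 CPM in WT and from 84.1 to 198 CPM in CREBH-KO. The CREBH-KO libraries of Ppp1r3b spanned both sides of the WT range, with CREBH-KO 1 lowest and CREBH-KO 3 highest (0.14 ± 0.27). Ppp1r3g, known to be induced on fasting, was low in all libraries, at 0.983 to 2.47 CPM in WT and 1.38 to 4.02 CPM in CREBH-KO (0.46 ± 0.44). The log2 fold change of Ppp1r3b turned negative without WT 2 and without CREBH-KO 3, and that of Ppp1r3g without CREBH-KO 2. With CREBH-KO 1 alone both were negative (-0.60 and -0.41).

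**Figure D2:**
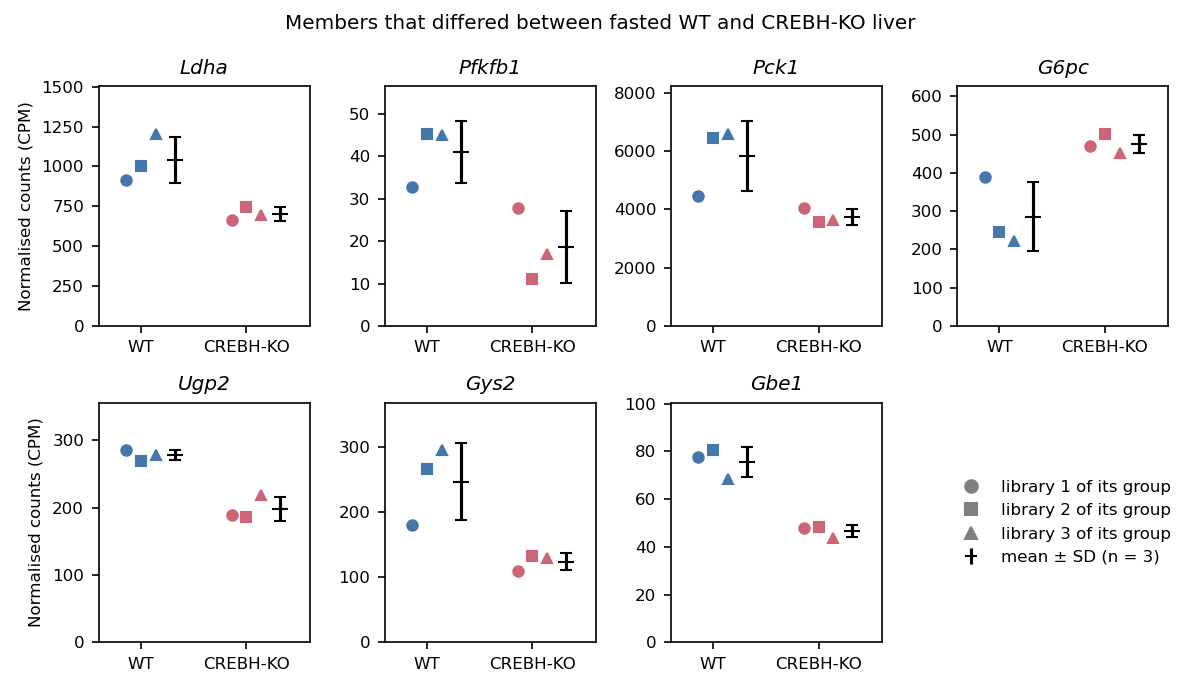
Normalised counts (CPM) of the 7 genes that differed, with each library as a point (circle, square and triangle for libraries 1, 2 and 3 of a group) and the mean ± SD in black (n = 3). In each of the 7 panels the WT and CREBH-KO libraries do not overlap; G6pc is the gene with the higher CREBH-KO values.

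Genes of glucose output moved in opposite directions. Pck1, the cytosolic PEP carboxykinase that commits carbon to gluconeogenesis, was the most abundant member per length in both groups (1699 ± 350.0 in WT and 1092 ± 78.5 in CREBH-KO, as RPKM, which is CPM divided by exonic length in kilobases). Its counts were 4444, 6454 and 6585 CPM in WT and 4054, 3562 and 3621 CPM in CREBH-KO. WT 1 lay just above CREBH-KO 1, while WT 2 and WT 3 lay well above every CREBH-KO library. Pck1 fell by 0.64 ± 0.15 on the log2 scale (SE, edgeR adjusted p = 0.0322). G6pc, the phosphatase subunit that frees glucose at the last step, was at 389, 245 and 222 CPM in WT and at 471, 502 and 453 CPM in CREBH-KO. Here too WT 1 stood nearest to the CREBH-KO libraries, which were all higher, and G6pc rose by 0.74 ± 0.19 on the log2 scale (SE, edgeR adjusted p = 0.0366). Leaving out WT 2, WT 3, CREBH-KO 2 or CREBH-KO 3 ended the call of Pck1 (edgeR adjusted p of 0.0828 to 0.124). For G6pc the call ended on leaving out any of the 6 libraries but WT 1 (0.0671 to 0.143), and with robust dispersion (0.0653). With CREBH-KO 1 alone against WT neither was called: the log2 fold change was -0.55 for Pck1 (edgeR adjusted p = 0.364) and 0.70 for G6pc (0.320).

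The other phosphatase and carboxykinase genes did not pass. Fbp1, the liver fructose-1,6-bisphosphatase, was among the steadiest members, at 1058 ± 39.2 CPM in WT and 1088 ± 6.77 CPM in CREBH-KO (log2 fold change 0.04 ± 0.08 SE, edgeR adjusted p = 0.801). Fbp2, the muscle form, reached at most 2.25 CPM in any library (-0.13 ± 0.28), and the ubiquitous G6pc3 averaged 9.09 ± 1.09 and 8.49 ± 1.44 CPM (-0.10 ± 0.16). Pck2, the mitochondrial carboxykinase, was at 2.38, 2.13 and 4.00 CPM in WT and at 5.21, 5.07 and 4.62 CPM in CREBH-KO. Each CREBH-KO library was higher, but the test did not pass (0.81 ± 0.25 SE, edgeR adjusted p = 0.0760). Pck2 passed in DESeq2 (adjusted p = 0.0248), in limma-voom (0.0464), with no filter (0.0191) and without WT 3 (0.0164). The log2 ratio of Pck1 to Pck2 per length was 12.1, 12.8 and 11.9 in WT and 10.8, 10.6 and 10.8 in CREBH-KO. That ratio did not overlap between groups and was lower by 1.48 in CREBH-KO (exact permutation p = 0.10, two-sided; 0.35 adjusted over 7 ratios).

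**Figure D3:**
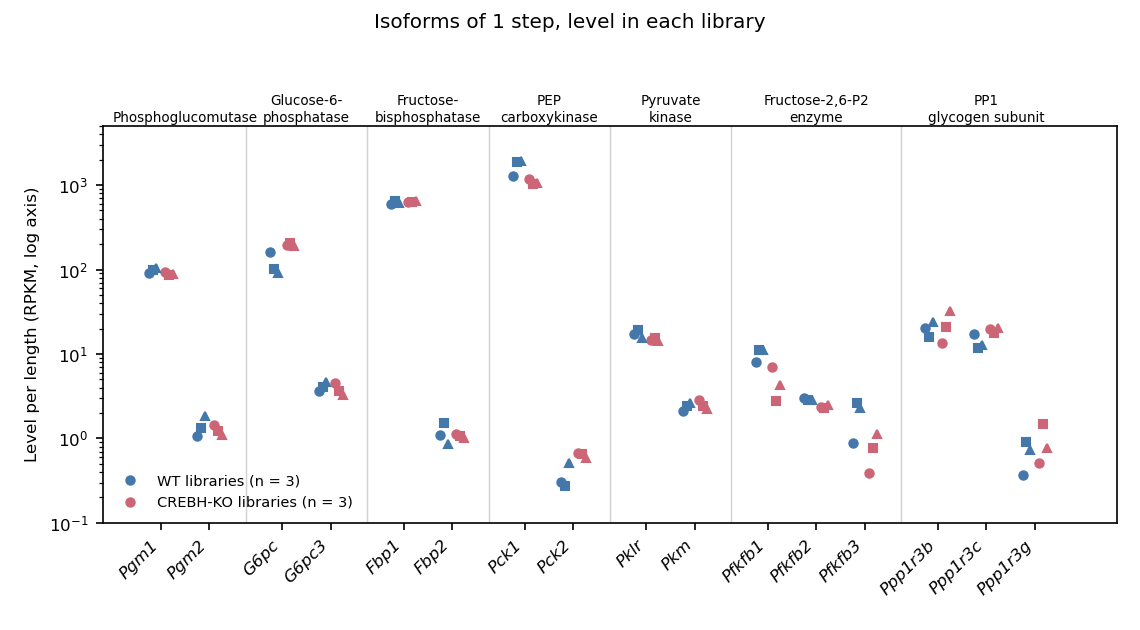
Level per length (RPKM, log axis) of members that serve 1 step, with each library as a point (blue, WT; red, CREBH-KO; 3 libraries per group). In WT and CREBH-KO libraries alike the liver forms Pgm1, G6pc, Fbp1, Pck1 and Pklr lie above Pgm2, G6pc3, Fbp2, Pck2 and Pkm.

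Fructose-2,6-bisphosphate, which switches glycolysis on and gluconeogenesis off, is made and removed by the bifunctional Pfkfb enzymes, and all 3 listed genes had negative log2 fold changes. Pfkfb1, the liver isoform, was at 32.7, 45.3 and 45.1 CPM in WT and at 27.9, 11.1 and 17.05 CPM in CREBH-KO. CREBH-KO 1 lay close to WT 1, and CREBH-KO 2 and CREBH-KO 3 lay far below; the gene fell by 1.13 ± 0.28 on the log2 scale (SE, edgeR adjusted p = 0.0351). With CREBH-KO 1 alone the log2 fold change was -0.58 (edgeR adjusted p = 0.277). Pfkfb3, an isoform with high kinase activity, was at 6.67, 20.0 and 17.1 CPM in WT and at 2.99, 5.78 and 8.57 CPM in CREBH-KO. WT 1 fell within the range of CREBH-KO, and the gene did not pass (-1.33 ± 0.43 SE, edgeR adjusted p = 0.0890), although it did without WT 1 (-1.70, adjusted p = 0.0139) and with no filter (adjusted p = 2.79e-06). Pfkfb2 was at 20.7 to 21.7 CPM in WT and at 16.7 to 18.1 CPM in CREBH-KO, with no overlap and a small spread (-0.28 ± 0.09 SE, edgeR adjusted p = 0.0771). The call of Pfkfb1 was lost in edgeR's robust fit (adjusted p = 0.120) and without any 1 of WT 2, WT 3, CREBH-KO 2 and CREBH-KO 3 (up to 0.118).

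In glycolysis, Ldha was the 1 gene of 11 that passed (9.09%, against 10.4% of all genes tested). Ldha, a subunit of the enzyme that interconverts pyruvate and lactate, was at 917, 1001 and 1203 CPM in WT and at 661, 748 and 694 CPM in CREBH-KO. The lowest WT library was above the highest CREBH-KO library, and Ldha fell by 0.57 ± 0.11 on the log2 scale (SE, edgeR adjusted p = 0.0147). Leaving out WT 2 (edgeR adjusted p = 0.0510) or CREBH-KO 3 (0.0628) ended the call, as did CREBH-KO 1 alone against WT (-0.68, adjusted p = 0.140). Among the shared enzymes of the pathway, Gpi1 (0.02), Tpi1 (0.08), Gapdh (-0.16), Pgk1 (-0.07), Pgam1 (-0.09) and Eno1 (0.01) had log2 fold changes with SE of 0.08 to 0.11. The sign of Gpi1, Pgk1, Pgam1 and Eno1 changed in 1 or more of the alternatives; that of Pgk1 did so with library size alone. The aldolase gene Aldoa was at 95.7, 94.3 and 119 CPM in WT and at 120.2, 138 and 137 CPM in CREBH-KO. Its groups were separate by the narrow gap between WT 3 and CREBH-KO 1, and it did not pass (0.36 ± 0.11 SE, edgeR adjusted p = 0.0685), though it did in DESeq2 (0.0358), with no filter (0.0269), with library size alone (0.0404) and without WT 3 (0.0242).

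The enzymes of the committed glycolytic steps did not pass either. Pfkl, the liver phosphofructokinase, averaged 40.0 ± 4.23 CPM in WT and 44.0 ± 4.83 CPM in CREBH-KO (log2 fold change 0.14 ± 0.11 SE). Pklr, the liver pyruvate kinase, was at 55.4, 63.0 and 49.6 CPM in WT and at 47.3, 49.5 and 46.6 CPM in CREBH-KO (-0.23 ± 0.10 SE, edgeR adjusted p = 0.176). Pkm, the pyruvate kinase of most other cells, averaged 11.8 ± 1.26 and 12.5 ± 1.54 CPM (0.07 ± 0.14). The Pklr to Pkm, Pck1 to Pklr and Fbp1 to Pfkl ratios overlapped between groups, with differences of -0.29, -0.39 and -0.10 on the log2 scale (two-sided exact permutation p of 0.30, 0.20 and 0.50). The G6pc to G6pc3 ratio overlapped as well, WT 1 at 5.47 lying above CREBH-KO 1 at 5.43 (difference 0.89, exact permutation p = 0.20). In sugar phosphorylation, Gckr, which holds glucokinase in the nucleus, had a log2 fold change of 0.15 ± 0.11, and Khk, the fructokinase, one of -0.09 ± 0.12. Both overlapped between groups.

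**Figure D4:**
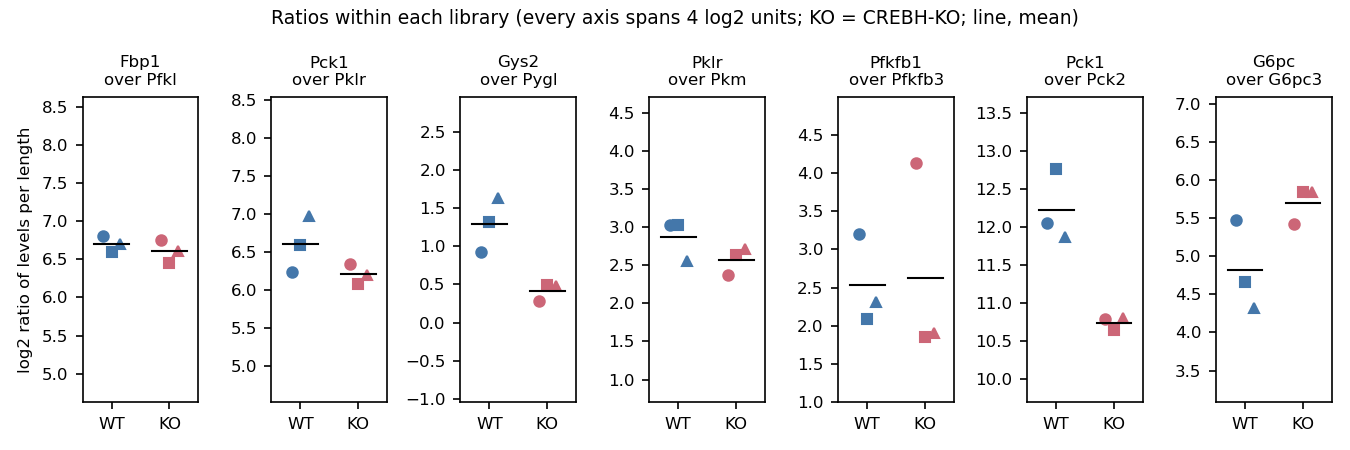
Log2 ratios of levels per length within each library for 7 pairs of enzymes (points, libraries, 3 per group; line, mean; KO, CREBH-KO; each axis spans the same range). Gys2 over Pygl and Pck1 over Pck2 do not overlap between groups, and Pfkfb1 over Pfkfb3 has 1 CREBH-KO library far above the other two.

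The libraries of a group were not equally alike across these genes. WT 1 was the lowest WT library for 19 of the 32 genes, against 6 for WT 2 and 7 for WT 3. The median coefficient of variation among WT libraries was 11.0% for the set and 13.1% for all genes tested. Among CREBH-KO libraries, CREBH-KO 1 was the highest for 15 genes and the lowest for 9, CREBH-KO 2 the highest for 11 and the lowest for 10, and CREBH-KO 3 the highest for 6 and the lowest for 13. CREBH-KO 1 was the lowest for Pfkfb3, Gys2, Ldha and Ppp1r3b and the highest for Pfkfb1 and Pck1. That library, whose labels record no lost file, ended all 7 calls of members when set alone against WT in edgeR, where 228 of all genes were called and the lone library is assumed to vary like the WT group.

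**Figure D5:**
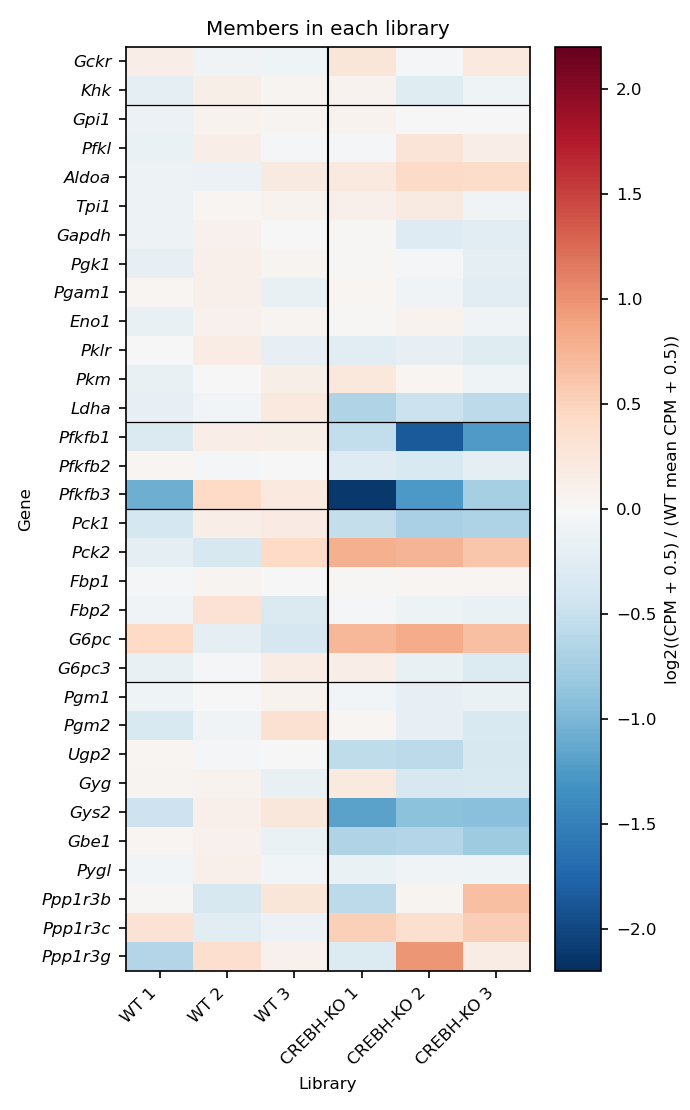
Each library's level of each gene relative to the WT mean, as log2((CPM + 0.5) / (WT mean CPM + 0.5)), with genes grouped by role and the vertical line between WT and CREBH-KO (3 libraries each). Ugp2, Gys2 and Gbe1 are blue in all 3 CREBH-KO libraries, and WT 1 is the bluest WT library for Pfkfb1, Pfkfb3, Pck1 and Gys2.

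Markers of other cell types and of liver zones were read beside these genes. The 8 pericentral hepatocyte markers summed to 14091 to 15159 CPM in WT and 6591 to 7892 CPM in CREBH-KO; 6 of them fell, among them Glul (-1.13) and Cyp2e1 (-1.06). The 8 periportal markers, of a zone known for gluconeogenesis, summed to 10348 to 13958 CPM in WT and 10036 to 12873 CPM in CREBH-KO. Of these, 1 rose (Cdh1, 1.07) and 1 fell, which was Pck1 itself. Pck1, at 4444 to 6585 CPM in WT, is a large part of that sum. Macrophage (74.2 to 160 against 83.5 to 104 CPM) and endothelial (135 to 171 against 144 to 152 CPM) sums overlapped between groups. The sum of stellate cell markers was higher in CREBH-KO (138 to 167 against 190 to 218 CPM, 2 of 8 called). The called markers were Dcn, the most abundant (84.8 ± 5.59 to 125 ± 9.98 CPM), and the low Acta2 (1.37 ± 0.386 to 3.80 ± 1.32 CPM). Of the 8, 7 had positive log2 fold changes, but Lrat (-0.08) and Reln (0.08) hardly moved. The erythroid sums overlapped (162 to 261 against 154 to 199.9 CPM), as did those of cholangiocyte markers (35.9 to 79.1 against 41.9 to 69.6 CPM; 1 of 5 tested, Sox9, was higher at 0.96), and lymphocyte, neutrophil and skeletal muscle sums were at most 5.10 CPM in any library. Adipocyte markers summed to 0.683 to 3.29 CPM in WT and 0.0293 to 0.135 CPM in CREBH-KO. That fall was in Cfd, from 1.73 ± 1.38 to 0.0113 ± 0.0195 CPM, the only gene of this list that was tested. Adipoq and Plin1 were at most 0.101 CPM in any library, with slightly higher means in CREBH-KO, and Lep and Retn were at 0. The part of the zonal, stellate and cholangiocyte differences in the changes above was not tested.

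Genes next to these pathways followed from lists that excluded the 32. Of 27 tested genes of other glycolytic isoforms and of fructose, polyol, glycerol phosphate and galactose metabolism, 9 fell and 1 rose (37.0% called, against 10.4% of all genes tested; median log2 fold change -0.21). Sord, which oxidises sorbitol to fructose, fell from 1448 ± 62.9 to 745 ± 77.7 CPM (-0.96 ± 0.10 SE, n = 3, edgeR adjusted p = 7.04e-04). The aldolase isoform Aldoc (-1.16), the aldose reductase Akr1b3 (-0.66), the D-lactate dehydrogenase Ldhd (-0.65), the mitochondrial glycerol phosphate dehydrogenase Gpd2 (-0.61) and the galactose genes Galk1 (-0.52) and Galm (-0.37) fell as well. The phosphofructokinase isoform Pfkp rose from 3.11 ± 0.613 to 6.06 ± 0.916 CPM (0.97 ± 0.21 SE, n = 3, edgeR adjusted p = 0.0211). Sord was called under all 14 alternatives and Ldhd under all but CREBH-KO 1 alone (adjusted p = 0.109). The other 6 were not called with CREBH-KO 1 alone either (edgeR adjusted p of 0.124 for Pfkp to 0.450 for Aldoc), with log2 fold changes of -0.59 for Aldoc, -0.60 for Akr1b3, -0.54 for Gpd2, -0.64 for Galk1, -0.40 for Galm and 1.18 for Pfkp. Robust dispersion ended the call of Aldoc (0.0718), upper-quartile factors that of Akr1b3 (0.0578), and library size alone those of Akr1b3 (0.0685), Galk1 (0.0594) and Galm (0.0735). Without WT 2, calls ended for Aldoc (edgeR adjusted p = 0.152), Akr1b3 (0.142), Gpd2 (0.0701), Galk1 (0.113), Galm (0.105) and Pfkp (0.0736). Among other single libraries left out, CREBH-KO 3 ended those of Aldoc (0.126), Akr1b3 (0.0932), Gpd2 (0.0517), Galk1 (0.111) and Galm (0.0828), CREBH-KO 2 those of Aldoc (0.142), Akr1b3 (0.135), Galm (0.0990) and Pfkp (0.0503), and CREBH-KO 1 those of Akr1b3 (0.0790), Galk1 (0.0805), Galm (0.0706) and Pfkp (0.0597). WT 3 did so for Aldoc (0.0919), Akr1b3 (0.101) and Galk1 (0.0849), and WT 1 for Akr1b3 (0.0660) and Galm (0.0509).

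Of 18 further gluconeogenesis genes, 6 fell and 1 rose (38.9% called, against 10.4% of all genes tested), with a median of -0.28. The fallers were the dicarboxylate carrier Slc25a10 (-0.74 ± 0.11), the aspartate-glutamate carrier Slc25a13 (-0.52 ± 0.09) and the mitochondrial aspartate aminotransferase Got2 (-0.38 ± 0.09), beside pyruvate carboxylase Pcx (-0.75), the pyruvate carrier subunit Mpc1 (-0.71) and the alanine aminotransferase Gpt2 (-0.71). Pdk4, which restrains pyruvate oxidation, rose (3.05 ± 0.51), a call that ended with robust dispersion (adjusted p = 0.0678). Got2 was not called without WT 2 (edgeR adjusted p = 0.106), WT 3 (0.0625), CREBH-KO 2 (0.0861) or CREBH-KO 3 (0.0956), and Pcx was lost on leaving out WT 2 (0.0659), CREBH-KO 2 (0.0599) or CREBH-KO 3 (0.0506). With CREBH-KO 1 alone all 7 calls ended (edgeR adjusted p of 0.0701 for Pdk4 to 0.371 for Got2), with log2 fold changes of 2.90 for Pdk4, -0.70 for Slc25a10, -0.66 for Pcx, -0.65 for Gpt2, -0.61 for Mpc1, -0.58 for Slc25a13 and -0.30 for Got2. Of 26 further glycogen genes, which include phosphorylase kinase, debranching and phosphatase subunits, only Pgm3 was called (3.85%, against 10.4% of all genes tested). It fell from 18.6 ± 2.59 to 5.31 ± 1.05 CPM (-1.81 ± 0.17 SE, n = 3, edgeR adjusted p = 4.74e-04). Pgm3 is named as a phosphoglucomutase but serves the hexosamine pathway. Of 14 genes of the pentose phosphate and hexosamine branches, 7.14% were called, against 10.4% of all genes tested. Taldo1 (transaldolase) fell by 0.41 on the log2 scale and none rose. Taldo1 was not called without WT 2 (edgeR adjusted p = 0.0851), CREBH-KO 2 (0.0589) or CREBH-KO 3 (0.0789), nor with CREBH-KO 1 alone (-0.42).

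Regulators of these pathways included 3 that rose and 6 that fell of 39 tested (23.1% called, against 10.4% of all genes tested; median -0.10). Cebpa, a transcription factor of hepatocyte energy metabolism, fell from 580.0 ± 64.9 to 365 ± 21.5 CPM (-0.67 ± 0.10 SE, n = 3, edgeR adjusted p = 0.00390). Igfbp1, an insulin-repressed liver gene, rose from 88.9 ± 36.8 to 310.3 ± 78.2 CPM (1.80 ± 0.27 SE, n = 3, edgeR adjusted p = 0.00412), and Creb1 (0.60) and Txnip (0.66) rose too. Srebf1 (-1.23), Ppara (-1.28), Trib3 (-1.15) and Foxo3 (-0.69) fell. Without WT 2 the calls of Foxo3 (edgeR adjusted p = 0.134), Txnip (0.156) and Creb1 (0.0682) ended, and without CREBH-KO 3 those of Foxo3 (0.0676), Txnip (0.127), Creb1 (0.0661) and Trib3 (0.0507). CREBH-KO 1 (0.0862 and 0.103) was needed for Foxo3 and Txnip, CREBH-KO 2 (0.128 and 0.0531) for Foxo3 and Creb1, WT 3 (0.1004) for Foxo3 and WT 1 (0.0899) for Txnip. Robust dispersion ended the calls of Foxo3 (0.0596) and Txnip (0.0704). CREBH-KO 1 alone ended those of Srebf1 (-1.19, edgeR adjusted p = 0.0727), Cebpa (-0.73, 0.0873), Trib3 (-0.89, 0.245), Foxo3 (-0.78, 0.262) and Creb1 (0.42, 0.359).

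Gene structure limits some of these values. Reads that aligned to several places were set aside in the counting, and members with near-identical copies can lose reads that way. Of the 50-base windows of its transcripts, 53.9% for Pgk1, 36.2% for Pgam1, 26.0% for Eno1, 25.8% for Pkm, 24.7% for Gapdh and 15.9% for Pfkfb2 also occur in transcripts of other genes. Exonic overlap with antisense genes was 22.0% for Pklr (with Hcn3), 13.6% for Pgm1 and 11.5% for Gpi1, and same-strand overlap was 17.4% for Pfkfb2 and 15.3% for Pkm. For the 7 called genes the share of such windows was 0 except in Ldha (9.03%), and exonic overlap was at most 3.06%, in Pfkfb1. Whether the counting used strand is not stated in these sources.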

How the data were processed

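Liver RNA in 3 WT and 3 CREBH-KO samples was sequenced as paired-end reads on an Illumina HiSeq, per the labels' protocols. The authors deposited raw read counts per gene, 1 file per library, named for HTSeq per the labels; aligner, build and strandedness: not given in the sources used here. Each of the 55536 identifiers matched GENCODE M21 (GRCm38), which supplied symbols, positions and exonic lengths. Reads that HTSeq assigned to no gene (27.4% to 31.2%) were left out.

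Counts were analysed with edgeR 4.0.16 in R 4.3.3: filterByExpr (minimum count 10, minimum total 15; 15589 genes, 99.9% of counts), TMM factors (0.967 to 1.05) and the quasi-likelihood test, Benjamini-Hochberg adjusted over all genes, threshold 0.05. SE was taken as |log2 fold change| / √F. RPKM is CPM per kilobase of the union of exons. Ratios were tested by exact permutation over libraries (scipy 1.17.1). DESeq2 1.42.0, limma-voom 3.58.1, other scalings, filters and left-out libraries were tried as alternatives. On simulated counts for 15589 genes, 200 genes above a minimum mean level were changed. The test recovered 32.8%, 74.6% and 97.0% of those changed 1.5-fold, 2-fold and 4-fold, and unchanged genes made up 5.56% of the calls. In the data 10.4% of genes were called, so recovery there, or for genes at low counts, may differ.

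Replicate numbers follow accession order and pair nothing. The labels speak of independent samples but tie none to a mouse, so p-values measure the spread between these samples. Members, gene lists and tests were chosen with earlier results of these data known. Each member is named. Of the other lists, called genes are named, up to 8 per list by size of change, besides the uncalled Ppp1r3e and Ppp1r3f.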

Additional observations from a re-analysis of the deposited data

How the results depend on the processing

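No paired analysis was possible because the labels give the libraries no replicate number shared between genotypes. The 7 called members kept their direction in all 14 alternatives. Of 448 pairs of a member and an alternative, 24 reversed sign, all in members that were not called. With CREBH-KO 1 alone these were Khk (0.057), Pfkl (-0.051), Pgk1 (0.0022), Pgam1 (0.026), Eno1 (-0.0050), G6pc3 (0.13), Pgm2 (0.022), Gyg (0.22), Ppp1r3b (-0.60) and Ppp1r3g (-0.41). With no filter they were Gpi1 (-0.0012) and Eno1 (-0.014), and with library size alone Pgk1 (0.0060). With 1 library left out, log2 fold changes ran from -0.052 to 0.055 for Gpi1 (-0.0043 without CREBH-KO 1), -0.079 to 0.054 for Eno1 (-0.027 without CREBH-KO 2), -0.025 to 0.154 for Pkm (-0.017 without WT 1), -0.299 to 0.117 for Fbp2, -0.345 to 0.056 for Pgm2, -0.224 to 0.392 for Ppp1r3b (-0.018 without WT 2) and -0.062 to 0.756 for Ppp1r3g; the cause was not tested.

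Called members numbered 7, and 11 with no filter, 0 with CREBH-KO 1 alone and 3 to 9 with 1 library left out. Those lower numbered 6, 3 to 7 with 1 left out and 0 with CREBH-KO 1 alone. The 1 higher became 3 with library size alone, 4 with no filter or in DESeq2, 2 in limma-voom, 0 in the robust fit or with CREBH-KO 1 alone and 0 to 2 with 1 left out. All genes called numbered 1616, 2456 with no filter, 228 with CREBH-KO 1 alone and 658 to 1806 with 1 left out. Of all calls, 37.7% were higher in CREBH-KO under TMM and 52.8% with library size alone, which moved the median of all genes from 0.02 to 0.10 and that of the members from -0.09 to -0.02. The other glycolysis and fructose list (10 called) had 5 with library size alone, 1 with CREBH-KO 1 alone and 2 to 9 with 1 left out. Gluconeogenesis (7) had 0 and 5 to 11. Glycogen (1) had 2 in the robust fit, in limma-voom or with minimum count 50, 4 with no filter or in DESeq2 and 1 to 3 with 1 left out. The pentose phosphate list (1) had 0 with CREBH-KO 1 alone and 0 to 2 with 1 left out, and the regulators (9) had 3 with CREBH-KO 1 alone. With the longest transcript as length, WT log2 ratios became 6.07 for Fbp1 over Pfkl (6.70), 0.16 for Gys2 over Pygl (1.29) and 1.98 for Pklr over Pkm (2.87). The difference in Pfkfb1 over Pfkfb3 was 0.10 and ranged from -0.66 to 0.48 with 1 library left out, being -0.13 without WT 2, -0.016 on leaving out WT 3 and -0.66 on leaving out CREBH-KO 1.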
